A study of Mus musculus with 6 samples.

Results

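The 10 genes described here are the fibroblast growth factor (Fgf) receptors Fgfr1, Fgfr2, Fgfr3 and Fgfr4, the receptor-like protein Fgfrl1, the hormone-like ligand Fgf21, and the feedback inhibitors Spry1, Spry2, Spry4 and Dusp6. They were taken by symbol from a table of RNA levels in which 57920 RefSeq transcripts were summed to 17558 genes, so they are 10 of 17558 genes. All 10 were listed and all 10 passed the filter on low counts. RNA was sequenced from C2C12 cells, an immortalized mouse myoblast line that leaves the cell cycle and fuses into myotubes when serum is lowered. Cells of all groups had been moved to medium with horse serum, insulin, transferrin and selenium and were harvested after 48 h. The control group, shScr, stably carried a scrambled hairpin and its genotype is labelled WT. The groups ShPkm1 and ShPkm2 stably carried hairpins directed at either splice isoform of Pkm, the muscle pyruvate kinase gene, and are labelled as knockdowns of that isoform. Each group has 2 libraries. The labels do not say whether the libraries of a group came from separate cultures, whether a line was 1 clone or a pool, or which sequence a hairpin had. The p-values therefore measure the spread between these libraries, which may be technical.

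Fgfs bind receptor tyrosine kinases of the Fgfr family together with heparan sulfate or, for the endocrine Fgfs such as Fgf21, with a Klotho protein. The receptors signal through Frs2, Ras and the Erk kinases. Erk activity induces its own inhibitors: the Sprouty proteins act on the route from receptor to Ras and Raf, and Dusp6 removes phosphate from Erk in the cytoplasm. In muscle precursors, Fgf signalling is known to favour proliferation and to delay differentiation, Fgfr4 is known as a gene of myoblasts and regenerating muscle, and Fgf21 is known as a hormone that stressed muscle can release.

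Libraries held between 18216896 and 19796036 estimated counts. Replicates correlated across genes at r between 0.988 and 0.994, and the shScr replicates differed from each other more than the others did, with a chi-square per degree of freedom of 31.0 against 6.01 in ShPkm1 and 6.67 in ShPkm2. The transcript of the Pkm1 isoform was lower in the ShPkm1 libraries (log2 fold change −1.66, adjusted p = 0.00272) and also in those labelled ShPkm2 (−1.58, adjusted p = 0.00124). The transcript of the Pkm2 isoform was at 1927 and 2468 CPM (counts scaled to library size) in shScr and at 3330 and 3452 CPM in the ShPkm2-labelled libraries, a log2 difference of 0.63 that did not pass the test (adjusted p = 0.0656) and that DESeq2 called higher (0.60, adjusted p = 0.000204). The label of this group was thus not borne out by a lower level of the isoform it names, and every direction given for it is that of the ShPkm2-labelled libraries. Of 12 myogenic markers, whose summed level was 30639 and 23834 TPM (scaled to transcript length and library) in shScr, 10 were lower in ShPkm1 (12014 and 12948 TPM), and 11 were lower in the ShPkm2-labelled libraries (1131 and 1057 TPM), where Myf5 rose. Among all tested genes 31.4% and 34.2% were lower in these comparisons, and on log2(TPM + 1) the ShPkm1 split of the markers was 1 higher and 9 lower.

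Promoter sequences are shown first for some of the genes: Fgf21 and Spry1, which fell in the ShPkm2-labelled libraries, Spry2 and Dusp6, which rose there, and Fgfr4, which rose in ShPkm1. Those of Fgfr2, Fgfr3 and Fgfrl1 were searched as well and are not shown. They are RefSeq windows of build GRCm38.p6, 250 bases before to 50 after the start of the gene, written 5′ to 3′ on the strand of the gene. Windows of 8 of the 10 genes were searched, 9 windows in all. No window was available for Fgfr1, and Spry4 was left out of the search. Capitals mark matches, on either strand, to any of 4 short motifs: TGATGNAAT (the C/EBP-ATF response element), CATTCC (the Tead or MCAT element), CCGGAA (an Ets element) and TGANTCA (an AP-1 element).
Fgf21 promoter, chr7:45615441-45615740, minus strand: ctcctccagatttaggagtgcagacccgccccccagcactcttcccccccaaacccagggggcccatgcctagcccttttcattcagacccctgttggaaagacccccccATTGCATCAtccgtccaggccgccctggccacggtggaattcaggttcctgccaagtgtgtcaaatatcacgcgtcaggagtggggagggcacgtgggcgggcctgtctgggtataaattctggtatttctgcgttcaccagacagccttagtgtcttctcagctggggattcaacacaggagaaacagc
Spry1 promoter, chr3:37639697-37639996, plus strand: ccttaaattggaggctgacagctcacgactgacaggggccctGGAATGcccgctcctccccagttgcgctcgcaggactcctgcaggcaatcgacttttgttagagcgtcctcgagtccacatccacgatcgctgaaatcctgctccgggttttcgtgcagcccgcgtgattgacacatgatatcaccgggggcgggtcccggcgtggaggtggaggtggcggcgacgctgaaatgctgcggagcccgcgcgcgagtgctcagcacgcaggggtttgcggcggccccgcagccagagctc
Spry2 promoter, chr14:105896770-105897069, minus strand: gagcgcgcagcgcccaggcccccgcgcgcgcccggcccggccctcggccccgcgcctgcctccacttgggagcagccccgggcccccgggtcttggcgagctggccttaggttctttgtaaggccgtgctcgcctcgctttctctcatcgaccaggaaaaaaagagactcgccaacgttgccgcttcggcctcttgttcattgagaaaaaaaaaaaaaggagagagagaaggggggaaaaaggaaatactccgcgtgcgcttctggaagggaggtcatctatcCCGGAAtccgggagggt
Dusp6 promoter, chr10:99262981-99263280, plus strand: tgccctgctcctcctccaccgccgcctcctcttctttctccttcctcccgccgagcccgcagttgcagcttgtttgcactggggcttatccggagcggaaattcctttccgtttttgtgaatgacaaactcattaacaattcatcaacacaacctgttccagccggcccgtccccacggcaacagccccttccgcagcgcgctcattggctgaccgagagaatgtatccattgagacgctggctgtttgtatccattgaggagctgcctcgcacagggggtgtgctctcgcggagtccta
Fgfr4 promoter, chr13:55152568-55152867, plus strand: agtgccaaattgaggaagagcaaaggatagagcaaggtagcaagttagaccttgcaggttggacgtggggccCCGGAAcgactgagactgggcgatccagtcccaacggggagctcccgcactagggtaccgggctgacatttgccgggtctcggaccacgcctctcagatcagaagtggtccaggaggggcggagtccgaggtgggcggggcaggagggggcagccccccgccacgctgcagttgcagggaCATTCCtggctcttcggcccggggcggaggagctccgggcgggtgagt

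The Fgf21 window held the C/EBP-ATF element, read on the opposite strand as ATTGCATCA, from base −140 to −132, where base 1 is the start of the gene. Of 32851 RefSeq promoter windows of the same length, 0.965% held this motif, and none of the other windows searched for these genes did. The Tead element lay at bases −208 to −203 in Spry1 and at bases 3 to 8 of the gene in Fgfr4, and was present in 14.7% of all windows. The Ets element lay at bases −178 to −173 in Fgfr4, −48 to −43 in Fgfrl1 and at bases 34 to 39 of the gene in Spry2, and was present in 14.9% of all windows. The AP-1 motif was in none of the 9 windows and in 7.81% of all windows. The E-box CANNTG, left in lower case, was in windows of 8 of the 8 genes (8 of 9 windows) and in 72.3% of all windows. No match overlapped a match of another motif. A match describes the letters only, and binding was not measured.

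In the edgeR fit across 12643 tested genes, 7 of the 10 genes differed between ShPkm1 and shScr at an adjusted p under 0.05, 2 higher and 5 lower. In that comparison 63.1% of all tested genes were called, so 7 of 10 is near the background. By direction, 31.8% of all tested genes were higher and 31.4% lower. Between the ShPkm2-labelled libraries and shScr, 9 of 10 differed, 4 higher and 5 lower, against 68.0% of all tested genes (33.9% higher and 34.2% lower). Between the ShPkm2-labelled libraries and ShPkm1, 9 of 10 differed, 3 higher and 6 lower, against 53.0% of all tested genes (25.7% higher and 27.3% lower). Fgfr2, which is counted among the higher calls against shScr, reached the minimum count of the filter in neither shScr library, so its direction there was fixed by the filter. Fgfr3 and Fgfr4 reached that minimum in 1 of the 2 ShPkm2-labelled libraries. Called and at least 2-fold apart were 3, 6 and 6 of the 10 genes in these comparisons, against 22.1%, 27.9% and 18.6% of all tested genes. The median log2 difference of the 10 genes was −0.13, −0.45 and −1.09 in these comparisons, and that of all tested genes lay between 0.00 and 0.01. The comparisons share libraries: both hairpin groups were set against the same shScr libraries.

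The scaling of libraries bears on the smallest of these differences. Without the TMM composition factor, the median of all genes shifted by 0.19 in ShPkm1 and 0.33 in the ShPkm2-labelled libraries on the log2 scale, and in limma on log2(TPM + 1) by 0.31 and 0.36. The share of calls that were higher went from 50.3% to 65.8% and 78.1% in ShPkm1, and from 49.8% to 69.3% and 75.7% in the ShPkm2-labelled libraries. Between the hairpin groups it went from 48.4% to 61.3% and 53.8%. Of the 10 genes, 2 higher and 2 lower were then called in ShPkm1 on library totals, and 4 higher and 1 lower on log2(TPM + 1), where 61.5% and 62.7% of all tested genes were called. In the ShPkm2-labelled libraries 5 were higher and 5 lower on both scales (69.6% and 69.2% of all tested genes called), and against ShPkm1 3 were higher and 5 lower on both (55.2% and 47.6%).

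**Figure D1:**
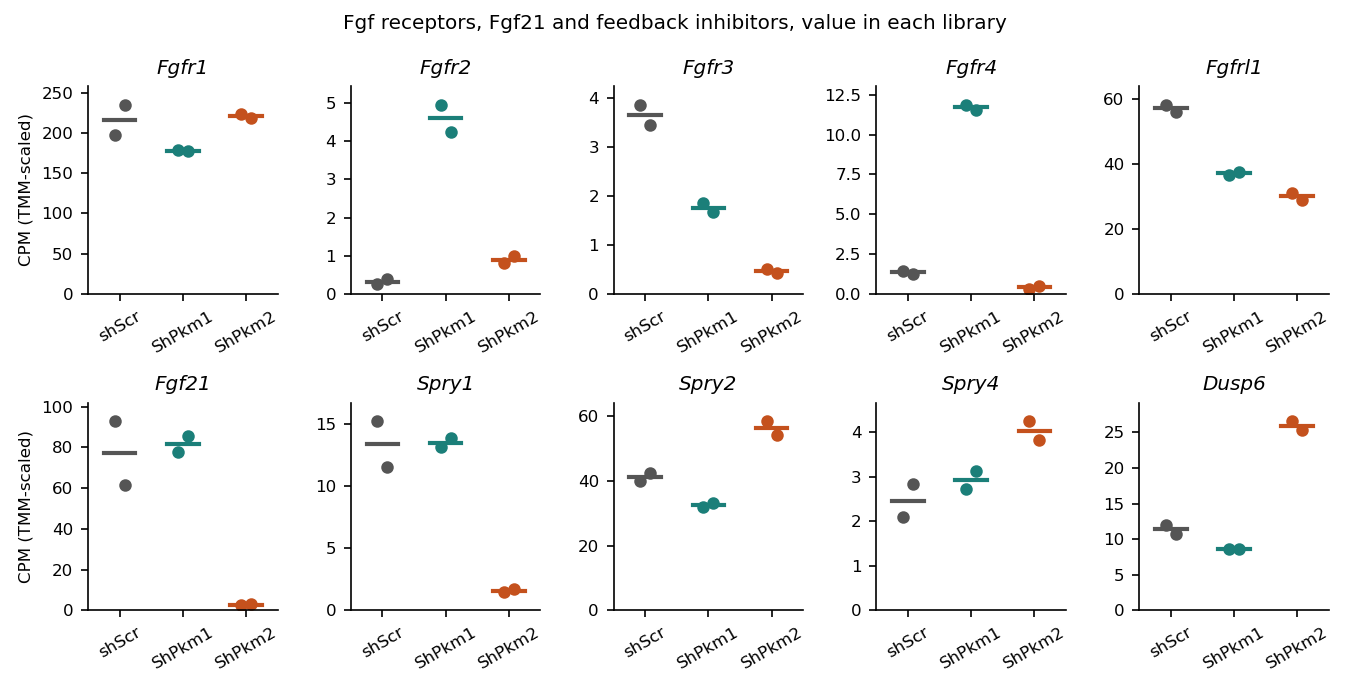
Level of each of the 10 genes in every library, in TMM-scaled CPM on axes that start at 0 and differ between panels. Points are libraries and lines are group means (n = 2 each). Fgf21 and Spry1 are low in both libraries labelled ShPkm2, Fgfr2 and Fgfr4 are high in both ShPkm1 libraries, and Dusp6 is high in both libraries labelled ShPkm2.

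**Figure D2:**
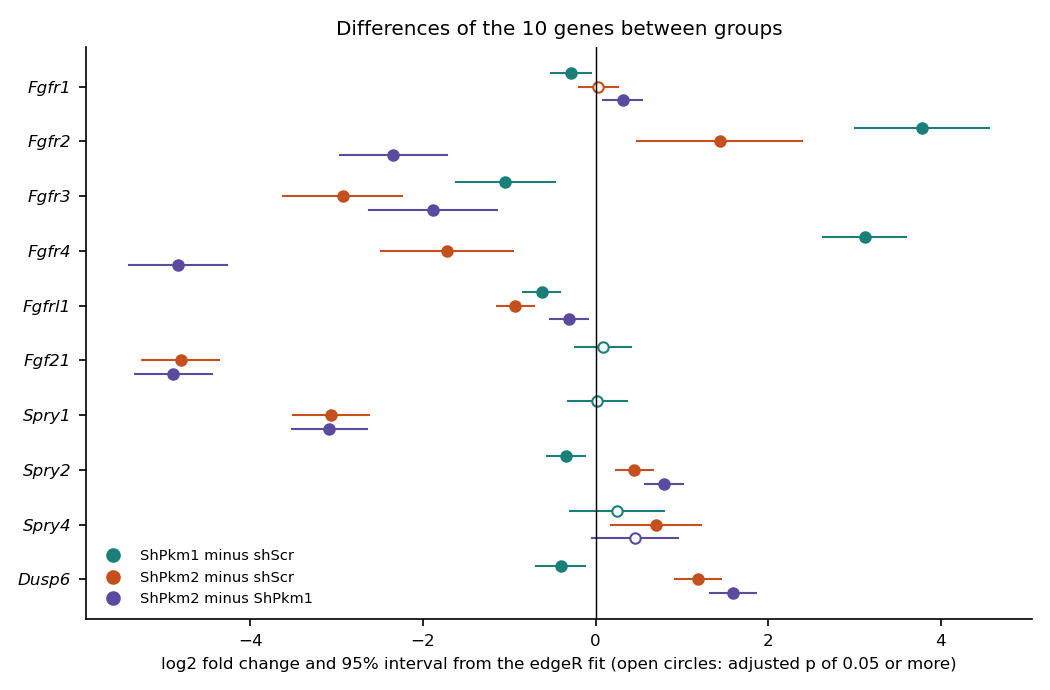
Log2 fold change of each gene in the 3 comparisons, with the 95% interval of the fit. Filled circles have an adjusted p under 0.05. The points run from −4.89 (Fgf21, ShPkm2 minus ShPkm1) to 3.78 (Fgfr2, ShPkm1 minus shScr), while those of Fgfr1 lie within 0.32 of 0.

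Fgf21 (NCBI gene 56636, chromosome 7, 45613890 to 45615490) encodes the only ligand among the 10 genes, a circulating Fgf that needs beta-Klotho to engage its receptors. Per length it was the most abundant of the 10 in shScr and ShPkm1, at 136 and 103 TPM in shScr, 162 and 171 TPM in ShPkm1, and 5.71 and 6.05 TPM in the ShPkm2-labelled libraries. In CPM it stood at 92.7 and 61.8 in shScr, 77.5 and 85.8 in ShPkm1, and 2.59 and 2.91 in the ShPkm2-labelled libraries. In CPM the values of ShPkm1 lay within the range of shScr, while in TPM they lay above both shScr libraries. Those labelled ShPkm2 lay far below both groups on either scale. Fgf21 fell 28-fold in the ShPkm2-labelled libraries (log2 fold change −4.81, SE 0.21, adjusted p = 3.28e-10) and was 29.7-fold lower there than in ShPkm1 (−4.89, SE 0.20, adjusted p = 5.03e-10). Against shScr, ShPkm1 gave 0.08 (SE 0.15, adjusted p = 0.65, 95% interval −0.24 to 0.41).

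The ShPkm1 value of Fgf21 turned on which control library was used. It was 0.40 (adjusted p = 0.00139) without shScr replicate 1 and −0.18 without shScr replicate 2, and it passed the test on log2(TPM + 1), at 0.49. The fall in the ShPkm2-labelled libraries lay between −5.07 and −4.49 with any 1 library left out. The myogenic markers, too, were lowest in the ShPkm2-labelled libraries, and their part in the result was not tested. Fewer cells of a type and less RNA per cell cannot be told apart in bulk RNA.

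Fgfr1 (NCBI gene 14182, chromosome 8, 25518759 to 25575718), the main Fgf receptor of myoblasts, held most of the receptor RNA in every library. It was at 56.0 and 74.1 TPM in shScr, 73.2 and 67.6 TPM in ShPkm1, and 94.9 and 88.1 TPM in the ShPkm2-labelled libraries. The order of the groups depended on the scale, since in CPM the values were 197 and 235 in shScr, 178 and 177 in ShPkm1, and 224 and 219 in the ShPkm2-labelled libraries. On counts, Fgfr1 fell 1.22-fold in ShPkm1 (log2 fold change −0.28, SE 0.11, adjusted p = 0.0314), and this call was lost on library totals (−0.09, adjusted p = 0.522), with only the groups compared (adjusted p = 0.0654) and without any 1 library except shScr replicate 1, and turned to 0.12 on log2(TPM + 1).

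Between the ShPkm2-labelled libraries and shScr, Fgfr1 differed by 0.03 in log2 CPM (SE 0.10, adjusted p = 0.793, 95% interval −0.19 to 0.26). The same difference was 0.35 on library totals (adjusted p = 0.0168) and 0.50 on log2(TPM + 1) (adjusted p = 0.00481), both called. Fgfr1 was 1.24-fold higher in the ShPkm2-labelled libraries than in ShPkm1 (0.32, SE 0.11, adjusted p = 0.022), and leaving out any library of those groups ended this call (adjusted p between 0.0937 and 0.131).

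Fgfr4 (NCBI gene 14186, chromosome 13, 55152818 to 55168759), the receptor known from myoblasts and regenerating muscle, moved in opposite directions in the hairpin groups. It held 23 and 22 estimated counts in shScr, 223 and 229 in ShPkm1, and 7 and 10 in the ShPkm2-labelled libraries. In CPM it stood at 1.46 and 1.24 in shScr, 11.9 and 11.6 in ShPkm1, and 0.33 and 0.48 in the ShPkm2-labelled libraries. The 3 groups did not overlap. Fgfr4 rose 8.68-fold in ShPkm1 (log2 fold change 3.12, SE 0.23, adjusted p = 1.1e-07) and fell 3.30-fold in the ShPkm2-labelled libraries (−1.72, SE 0.36, adjusted p = 0.000751). The hairpin groups differed 28.7-fold (−4.84, SE 0.26, adjusted p = 6.39e-09), and no alternative tried ended any of these calls.

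Fgfr2 (NCBI gene 14183, chromosome 7, 130162451 to 130266808), a receptor best known from epithelia and bone, was close to the limit of detection in the controls. It held 4 and 7 estimated counts in shScr, 93 and 84 in ShPkm1, and 17 and 21 in the ShPkm2-labelled libraries. It passed the filter through the hairpin groups alone, since neither shScr library reached the minimum, so a gene that passed in this way had to be higher in them, and the p-values against shScr add no support to that direction. Fgfr2 rose 13.8-fold in ShPkm1 (log2 fold change 3.78, SE 0.36, adjusted p = 1.33e-06). It rose 2.71-fold in the ShPkm2-labelled libraries (1.44, SE 0.44, adjusted p = 0.0111), a call lost without shScr replicate 1 (adjusted p = 0.0606) or without ShPkm2 replicate 2 (adjusted p = 0.0652). Between the hairpin groups it was 5.07-fold lower in the ShPkm2-labelled libraries (−2.34, SE 0.29, adjusted p = 1.54e-05).

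Fgfr3 (NCBI gene 14184, chromosome 5, 33721724 to 33737068), known for restraining the growth of bone, was also low. It held 61 and 61 estimated counts in shScr, 35 and 33 in ShPkm1, and 11 and 9 in the ShPkm2-labelled libraries. Each hairpin group lay below the controls and the groups did not overlap. Fgfr3 fell 2.06-fold in ShPkm1 (log2 fold change −1.05, SE 0.27, adjusted p = 0.00385; adjusted p = 0.0513 in limma on log2(TPM + 0.1)). It fell 7.62-fold in the ShPkm2-labelled libraries (−2.93, SE 0.32, adjusted p = 3e-06) and was 3.69-fold lower there than in ShPkm1 (−1.88, SE 0.34, adjusted p = 0.00046).

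Per length, the makeup of the 4 signalling receptors differed between groups. The summed level was 57.9 and 76.1 TPM in shScr, 82.9 and 76.3 TPM in ShPkm1, and 95.7 and 89.0 TPM in the ShPkm2-labelled libraries. Fgfr1 made up 96.7% and 97.4% of it in shScr, 88.3% and 88.6% in ShPkm1, and 99.2% and 99.1% in the ShPkm2-labelled libraries. The share of Fgfr4 was 1.05% and 0.801% in shScr, 8.57% and 8.58% in ShPkm1, and 0.220% and 0.315% in the ShPkm2-labelled libraries. These shares are descriptions, with no test. In shScr the order of levels was Fgfr1, Fgfr3, Fgfr4 and Fgfr2, and in ShPkm1 it was Fgfr1, Fgfr4, Fgfr2 and Fgfr3, with no overlap between neighbours in either group. In the ShPkm2-labelled libraries, Fgfr2 (0.30 and 0.36 TPM), Fgfr4 (0.21 and 0.28 TPM) and Fgfr3 (0.25 and 0.20 TPM) were at near the same level, and the values of Fgfr3 and Fgfr4 overlapped.

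**Figure D3:**
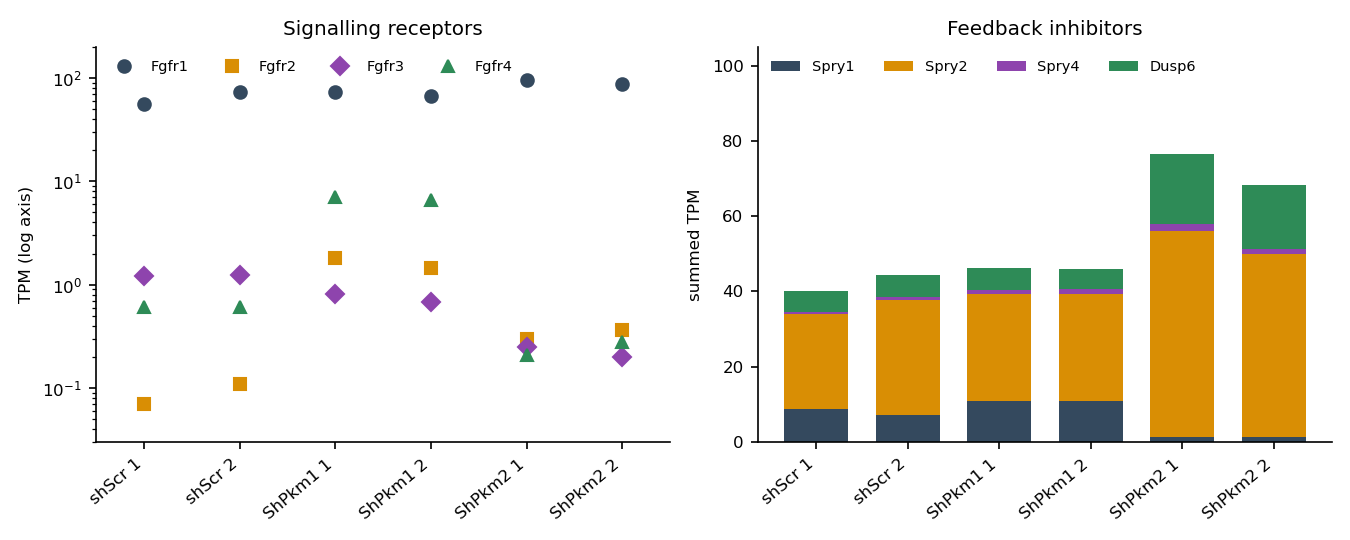
Left, TPM of the 4 signalling receptors in each library, on a log axis. Right, TPM of the 4 feedback inhibitors stacked to their sum. Fgfr4 lies at 7.10 and 6.55 TPM in ShPkm1 and under 1 TPM elsewhere, and the inhibitor sum is 76.6 and 68.4 TPM in the ShPkm2-labelled libraries against 40.3 to 46.2 TPM in the other 4 libraries.

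Fgfrl1 (NCBI gene 116701, chromosome 5, 108694229 to 108706950) encodes a receptor-like protein that binds Fgfs and lacks the tyrosine kinase domain. It was at 58.3 and 56.2 CPM in shScr, 36.7 and 37.6 CPM in ShPkm1, and 31.2 and 28.9 CPM in the ShPkm2-labelled libraries. All 4 hairpin libraries lay below both controls. Fgfrl1 fell 1.54-fold in ShPkm1 (log2 fold change −0.62, SE 0.10, adjusted p = 0.000121), a call lost on log2(TPM + 1) (−0.20, adjusted p = 0.16). It fell 1.90-fold in the ShPkm2-labelled libraries (−0.93, SE 0.10, adjusted p = 2.61e-06). The difference between the hairpin groups (−0.31, adjusted p = 0.0207) was lost without any 1 library of those groups (adjusted p between 0.0531 and 0.157), in DESeq2 (adjusted p = 0.055) and on library totals (adjusted p = 0.179).

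The inhibitors split in the ShPkm2-labelled libraries: Spry1 fell, and Spry2, Spry4 and Dusp6 rose. Spry1 (NCBI gene 24063, chromosome 3, 37639947 to 37644599), a Sprouty known for keeping muscle stem cells quiescent, was at 15.2 and 11.5 CPM in shScr and 13.2 and 13.9 CPM in ShPkm1. In the ShPkm2-labelled libraries it was at 1.46 and 1.72 CPM, below every other library. Spry1 fell 8.37-fold there (log2 fold change −3.07, SE 0.20, adjusted p = 2.35e-08) and was 8.47-fold lower than in ShPkm1 (−3.08, SE 0.20, adjusted p = 3.82e-08). In ShPkm1 it differed from shScr by 0.02 (SE 0.16, adjusted p = 0.929, 95% interval −0.32 to 0.36), but by 0.40 on log2(TPM + 1) (adjusted p = 0.0296).

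Spry2 (NCBI gene 24064, chromosome 14, 105891947 to 105896819) was the most abundant inhibitor per length in every library, at 25.4 to 30.4 TPM in the shScr and ShPkm1 libraries and 54.8 and 48.6 TPM in those labelled ShPkm2. In CPM it was at 39.9 and 42.4 in shScr, 31.8 and 33.2 in ShPkm1, and 58.4 and 54.1 in the ShPkm2-labelled libraries. Spry2 rose 1.37-fold in the ShPkm2-labelled libraries against shScr (log2 fold change 0.45, SE 0.10, adjusted p = 0.00136) and was 1.73-fold higher there than in ShPkm1 (0.79, SE 0.10, adjusted p = 2.1e-05). On counts it fell 1.27-fold in ShPkm1 (−0.34, SE 0.10, adjusted p = 0.0105). That call was lost on library totals (−0.15, adjusted p = 0.265) and without ShPkm1 replicate 1 (adjusted p = 0.0904), and the difference turned to 0.04 on log2(TPM + 1).

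Spry4, another Sprouty induced by Erk, was per length the lowest of the inhibitors in the shScr and ShPkm1 libraries, with 33 and 50 estimated counts in shScr, 51 and 62 in ShPkm1, and 90 and 80 in the ShPkm2-labelled libraries. It rose 1.63-fold in the ShPkm2-labelled libraries (log2 fold change 0.70, SE 0.24, adjusted p = 0.0197), a call lost in DESeq2 (adjusted p = 0.113), without shScr replicate 1 (adjusted p = 0.0951) and without ShPkm2 replicate 1 (adjusted p = 0.114). In ShPkm1 the difference was 0.25 (SE 0.25, adjusted p = 0.414). Between the hairpin groups it was 0.46 (SE 0.23, adjusted p = 0.113, 95% interval −0.04 to 0.96).

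Dusp6 (NCBI gene 67603, chromosome 10, 99263231 to 99267489), the phosphatase of Erk, was at 12 and 10.8 CPM in shScr, 8.57 and 8.65 CPM in ShPkm1, and 26.6 and 25.4 CPM in the ShPkm2-labelled libraries. The 3 groups did not overlap in CPM, while in TPM the values of shScr (5.67 and 5.74) lay within those of ShPkm1 (5.78 and 5.52). Dusp6 rose 2.28-fold in the ShPkm2-labelled libraries (log2 fold change 1.19, SE 0.12, adjusted p = 1.73e-06) and was 3.01-fold higher there than in ShPkm1 (1.59, SE 0.12, adjusted p = 2.04e-07). On counts it fell 1.32-fold in ShPkm1 (−0.41, SE 0.13, adjusted p = 0.0176). This call was lost on library totals (adjusted p = 0.196), on log2(TPM + 1) (−0.01, adjusted p = 0.945), in DESeq2 (adjusted p = 0.0775) and without shScr replicate 1 or either ShPkm1 library (adjusted p between 0.0655 and 0.0802).

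As shares of the 4 inhibitors' summed TPM, Spry1 was 21.5% and 16.4% in shScr, 23.4% and 23.5% in ShPkm1, and 1.70% and 1.89% in the ShPkm2-labelled libraries. Dusp6 was 14.1% and 13.0% in shScr, 12.5% and 12% in ShPkm1, and 24.4% and 24.8% in the ShPkm2-labelled libraries. Spry2 made up 61.7% to 71.6% of the sum across libraries. These shares, too, are descriptions.

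The deposited table also divides the counts of a gene over its RefSeq transcripts, with 9 transcripts for Fgfr1 (3 curated and 6 predicted), 12 for Fgfr2, 16 for Fgfr3, 4 for Spry1, 3 each for Fgfr4 and Fgfrl1, 2 for Spry2 and 1 each for the rest. A transcript's count depends on how reads shared between transcripts were assigned. Of 27 transcripts of the 10 genes that passed the filter on low counts, 2 were called in ShPkm1, 10 in the ShPkm2-labelled libraries and 6 between the hairpin groups, where 10.8%, 17.2% and 7.91% of 33433 tested transcripts were called. These calls include transcripts nearly absent from the ShPkm2-labelled libraries, which passed the filter through other groups alone. They are NM_001079908.2, NM_010206.3 and NM_001164259.1, described below, and the Spry1 transcripts NM_001305440.1 and NM_001305441.1. The filter fixed their direction, so these counts cannot be read as an excess over the shares of all transcripts. With 1 library left out these counts were 0 to 2, 4 to 7 and 1 to 5. Of the curated Fgfr1 transcripts, NM_001079908.2 and NM_010206.3 contain exon 3 and NM_001079909.2 lacks it. This exon of 267 bases (89 codons) encodes much of the first immunoglobulin-like loop, whose absence is known to set the beta form of the receptor apart from the alpha form. It is shown because the counts of the transcripts that hold it differed between groups. The exon is in capitals, and the 15 lower-case bases on each side belong to the neighbouring exons of the spliced transcript. The sequence is that of the transcript (GRCm38), on the plus strand.
Fgfr1 exon 3, chr8:25555508-25555774: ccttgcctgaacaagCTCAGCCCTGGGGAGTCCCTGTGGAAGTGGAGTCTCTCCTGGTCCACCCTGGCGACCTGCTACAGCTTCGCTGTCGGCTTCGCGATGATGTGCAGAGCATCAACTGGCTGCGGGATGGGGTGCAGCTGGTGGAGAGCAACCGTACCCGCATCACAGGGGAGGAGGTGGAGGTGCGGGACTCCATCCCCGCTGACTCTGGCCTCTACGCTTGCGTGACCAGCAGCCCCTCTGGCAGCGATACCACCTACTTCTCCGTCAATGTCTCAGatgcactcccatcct

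NM_001079908.2 held 160 and 517 estimated counts in the shScr libraries, and NM_010206.3 held 98.2 and 416. In all 4 hairpin libraries each was at 0.05 counts or fewer. Both transcripts passed the filter on low counts through the shScr libraries alone, so a transcript that passed in this way had to be lower in the hairpin groups, and the p-values below add no support to that direction. Taking 3 counts per library as the floor, NM_001079908.2 was at least 124-fold lower in ShPkm1 than the mean of shScr and at least 136-fold lower in the ShPkm2-labelled libraries (adjusted p = 0.0461 and 0.033). Set against the lower control library alone, the bounds were 62.9-fold and 69.1-fold. NM_010206.3 was at least 93.9-fold and 103-fold lower than the mean of shScr (38.5-fold and 42.3-fold against the lower control library), and passed the test in the ShPkm2-labelled libraries (adjusted p = 0.0471) but not in ShPkm1 (adjusted p = 0.0632). The exon 3-skipping NM_001079909.2 held 442 and 471 counts in shScr, 1058 and 1009 in ShPkm1, and 1171 and 1657 in the ShPkm2-labelled libraries. It rose in ShPkm1 (log2 fold change 1.01, adjusted p = 0.0425) and in the ShPkm2-labelled libraries (1.33, adjusted p = 0.0149).

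These transcript calls were near the threshold. With a replicate block (the replicate numbers as a term), the adjusted p of NM_001079908.2 was 0.0906 in ShPkm1 and 0.0656 in the ShPkm2-labelled libraries, and in DESeq2 it was 0.0825 and 0.0668. Its ShPkm1 call was also lost with only the groups compared (adjusted p = 0.0589) and without any 1 library (adjusted p between 0.0635 and 0.138), and its ShPkm2 call without any 1 library of the groups compared (adjusted p between 0.0597 and 0.111). The call of NM_010206.3 in the ShPkm2-labelled libraries was lost with the block (adjusted p = 0.0793), with only the groups compared (0.0534), in DESeq2 (0.0802) and without any 1 library (adjusted p between 0.0608 and 0.156). The ShPkm1 call of NM_001079909.2 was lost with the block (adjusted p = 0.0948) and without any 1 library of the groups compared (adjusted p between 0.137 and 0.19), and its ShPkm2 call was lost without either shScr library (adjusted p = 0.0715 and 0.0712). The 6 predicted transcripts, whose exons were not analysed here, held 63.9% to 77.5% of the Fgfr1 counts in a library, so the share of all Fgfr1 RNA with the exon is not known from these values.

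For Fgfrl1, the curated transcript NM_001164259.1 lacks exon 3 (chromosome 5, 108703286 to 108703558, 273 bases or 91 codons), which NM_054071.2 contains. NM_001164259.1 held 153 and 93.0 estimated counts in shScr, 143 and 192 in ShPkm1, and 0 in both libraries labelled ShPkm2, so it passed the filter through the other groups alone. It was at least 51.3-fold lower there than the mean of shScr, and at least 36.6-fold lower than the lower control. The filter fixed this direction, so the p-values against shScr (adjusted p = 0.00685) and ShPkm1 (adjusted p = 0.0122) add no support to it. The call against ShPkm1 was lost with a replicate block (adjusted p = 0.0556) and without any 1 library of those groups (adjusted p between 0.0525 and 0.0834). The transcript with the exon, NM_054071.2, held 309 and 511 counts in shScr and 198 and 183 in ShPkm1. That difference did not pass the test (log2 fold change −1.26, adjusted p = 0.0567). The ShPkm2-labelled libraries, at 233 and 175 counts, differed from ShPkm1 by −0.04 (adjusted p = 0.981). Against shScr they were called lower (−1.30, adjusted p = 0.0393). That call was lost on library totals (adjusted p = 0.0895), with a replicate block (0.0973), with only the groups compared (0.0658), on log2(TPM + 1) (0.103) and without any 1 library except shScr replicate 1 (adjusted p between 0.0871 and 0.183). The predicted XM_017320618.1 held 39.3% to 71.2% of the Fgfrl1 counts in a library. For Spry1 the division was unstable between replicates: NM_001305442.1 held 59.0 and 0 counts in the shScr libraries, so its transcripts are not described further.

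**Figure D4:**
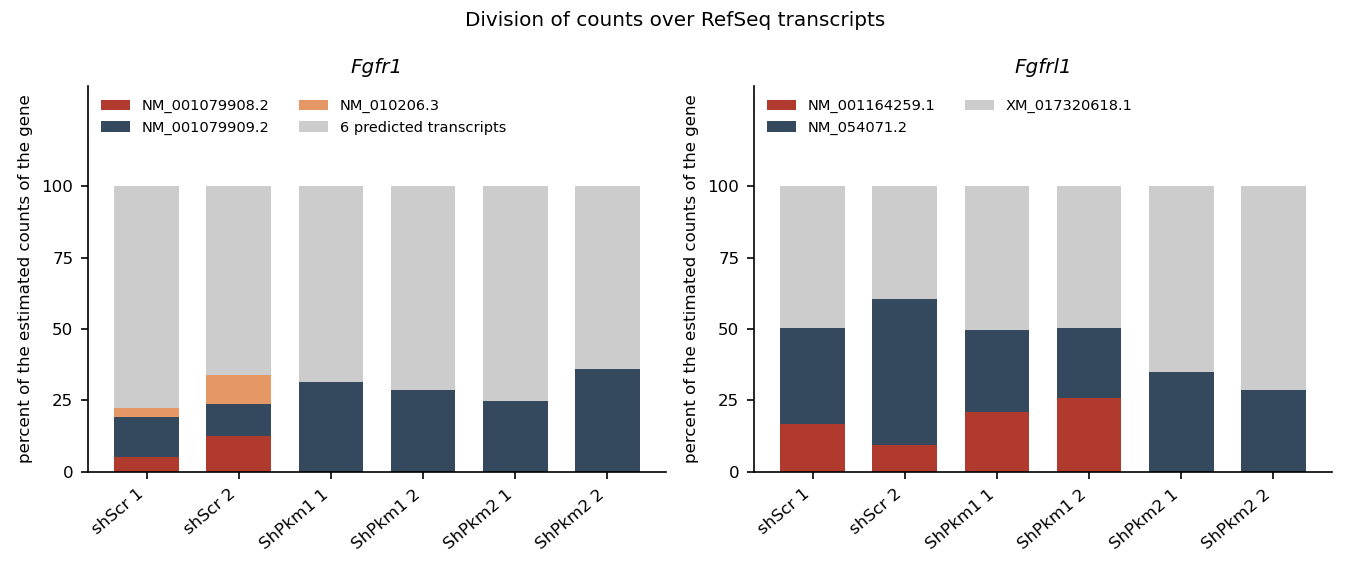
Percent of the estimated counts of Fgfr1 (left) and Fgfrl1 (right) that the deposited table assigns to each RefSeq transcript, stacked per library. The Fgfr1 transcripts NM_001079908.2 and NM_010206.3 are visible in the shScr libraries alone, and the Fgfrl1 transcript NM_001164259.1 is absent from both libraries labelled ShPkm2.

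In the lists that follow, a gene given for 1 hairpin group had one of the largest changes there and may have changed in the other group too. Around the 10 genes, few other Fgf ligands were measurable: of 21 listed, 16 were in the table and 5 were tested. Fgf7, a ligand of the Fgfr2 splice form of epithelia, was at 9.13 and 9.44 CPM in shScr, 37.6 and 33.5 CPM in ShPkm1, and 107 and 112 CPM in the ShPkm2-labelled libraries. It rose in both hairpin groups (log2 fold change 1.94, SE 0.12, adjusted p = 2.53e-08, and 3.56, SE 0.12, adjusted p = 2.99e-11). Fgf10, which binds the same receptor form, went from 0.32 and 0.34 CPM in shScr to 11.8 and 8.39 CPM in ShPkm1 and to 1.18 and 1.67 CPM in the ShPkm2-labelled libraries. Its 5 and 6 estimated counts in shScr were under the minimum, so it passed the filter through the hairpin groups alone and had to be higher in them, and no test is given. Fgf11, an intracellular Fgf that does not act on these receptors, fell in both (−0.77, adjusted p = 1.63e-05, and −2.13, adjusted p = 1.15e-09). Fgf5 held 9 and 7 estimated counts in shScr, 2 and 2 in ShPkm1 and 12 and 13 in the ShPkm2-labelled libraries. It passed the filter through the ShPkm2-labelled libraries alone and was under the minimum in both other groups. Between those groups it was called lower in ShPkm1 (−2.14, adjusted p = 0.0111), and the call was lost in DESeq2 (adjusted p = 0.111). Fgf2 differed from shScr by 0.75 (adjusted p = 0.146) and −1.11 (adjusted p = 0.0806), and was called higher in ShPkm1 on log2(TPM + 1) (adjusted p = 0.00262). It held 11 and 8 estimated counts in shScr, 16 and 21 in ShPkm1, and 7 and 4 in the ShPkm2-labelled libraries. ShPkm1 was the only group with both libraries past the minimum, so that call adds no support to its direction. The Klotho co-receptors Kl and Klb were at 1 count or fewer in every library.

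Of 31 co-receptors and heparan sulfate genes, 23 were tested. In ShPkm1, 8 were higher and 8 lower, and in the ShPkm2-labelled libraries, 7 were higher and 10 lower, near the 63.1% and 68.0% called among all tested genes. On library totals the split was 11 to 7 in each, and on log2(TPM + 1) it was 12 to 4 and 11 to 5. Gpc6, a glypican, rose in ShPkm1 (2.74, adjusted p = 1.09e-09) and in the ShPkm2-labelled libraries (1.34, adjusted p = 6.36e-07), and so did Glce, which modifies heparan sulfate (1.62 and 0.85). The syndecan Sdc2 rose in ShPkm1 (1.71, adjusted p = 6.67e-08). Ncam1, an adhesion molecule that can bind Fgfr1, fell in both (−0.92, adjusted p = 6.18e-06, and −2.92, adjusted p = 1.1e-10), as did the proteoglycan agrin, Agrn (−1.65 and −1.57).

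All 25 transducers between receptor and Erk were tested. In ShPkm1, 10 were higher and 9 lower, and in the ShPkm2-labelled libraries, 10 were higher and 10 lower, against splits of 14 to 5 and 14 to 6 on library totals and 14 to 5 in both on log2(TPM + 1). Among all tested genes, 63.1% and 68.0% were called in these comparisons. The receptor adaptor Frs2 was at 25.7 and 27.2 CPM in shScr, 48.7 and 42.2 CPM in ShPkm1, and 67.4 and 64.8 CPM in the ShPkm2-labelled libraries. It rose in both (0.78, adjusted p = 4.11e-05, and 1.32, adjusted p = 1.87e-07), as did the kinases Braf (1.00 and 1.02) and Mapk3, which encodes Erk1 (0.67 and 0.96). Hras (−1.20 and −1.55), Map2k2, which encodes Mek2 (−1.16 and −1.32), and the scaffold Ksr1 (−1.55 and −1.20) fell in both.

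All 19 other negative regulators of the route were tested. In ShPkm1, where 31.8% of all tested genes were higher and 31.4% lower, 5 were higher and 7 lower, with a median log2 difference of −0.17 (6 to 3 and a median of 0.02 on library totals, 7 to 3 and 0.23 on log2(TPM + 1)). In the ShPkm2-labelled libraries, 12 were higher and 3 lower, with a median of 0.72, where 33.9% of all tested genes were higher and 34.2% lower with a median of 0.01. On library totals the split was 14 to 2 and on log2(TPM + 1) it was 16 to 2. Against ShPkm1, 13 were higher and 2 lower in them (25.7% and 27.3% of all tested genes), with a median of 0.53 (16 to 1 on library totals). The list includes Spry3, at 7 and 7 estimated counts in shScr, 10 and 4 in ShPkm1, and 41 and 38 in the ShPkm2-labelled libraries. Only the latter group had both libraries past the minimum of the filter. The direction of Spry3 in both comparisons with that group was thus fixed, and it adds no support to these counts.

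Dusp4, a nuclear Erk phosphatase, went from 18.1 and 18.7 CPM in shScr to 8.68 and 11.4 CPM in ShPkm1 (−0.87, adjusted p = 0.000134) and 46.9 and 43.4 CPM in the ShPkm2-labelled libraries (1.30, adjusted p = 1.03e-06). Rasa1, which switches Ras off, rose in both groups (1.499, adjusted p = 3.43e-07, and 2.06, adjusted p = 7.39e-09). Errfi1, an inhibitor of the Egf receptor, rose in the ShPkm2-labelled libraries (1.59, adjusted p = 2.25e-08). The Sprouty relative Spred1 and the Fgf receptor antagonist Il17rd rose in ShPkm1 (0.78 and 0.80) and in the ShPkm2-labelled libraries (1.22 and 1.14). Dusp1, a phosphatase of stress kinases and Erk, fell in both (−1.40, adjusted p = 1.33e-06, and −1.14, adjusted p = 4.45e-06), Dusp2 fell in ShPkm1 (−1.78, adjusted p = 0.000251), and Dusp14 fell in the ShPkm2-labelled libraries (−1.10, adjusted p = 7.6e-07).

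Of 21 genes known to respond to Erk, 12 were higher and 3 lower in ShPkm1, with a median of 0.40, and 12 were higher and 5 lower in the ShPkm2-labelled libraries, with a median of 0.58. Among all tested genes 31.8% were higher and 31.4% lower in ShPkm1, and 33.9% and 34.2% in the ShPkm2-labelled libraries. On library totals the splits were 13 to 1 and 13 to 3. The list includes Epha4, at 2 and 4 estimated counts in shScr, 32 and 23 in ShPkm1, and 2 and 1 in the ShPkm2-labelled libraries. It passed the filter through ShPkm1 alone and had to be higher there, so it adds no support to the ShPkm1 count. The cyclin gene Ccnd1 was at 20.4 and 22.9 CPM in shScr, 94.5 and 93.6 CPM in ShPkm1, and 179 and 183 CPM in the ShPkm2-labelled libraries (2.12, adjusted p = 3.93e-09, and 3.06, adjusted p = 5.13e-11). The Ets factor gene Etv4 rose from 5.70 and 7.29 CPM in shScr to 40.3 and 39.2 CPM in the ShPkm2-labelled libraries (2.61, adjusted p = 2.49e-09), where it was higher than in ShPkm1 (2.05, adjusted p = 2.67e-08). The AP-1 gene Fosl1 rose there as well (2.30, adjusted p = 5.37e-10). Members of the list did not move as 1 group: Junb (−1.05, adjusted p = 5.18e-06), Lif (−1.56, adjusted p = 1.84e-05) and Fos (−0.96, adjusted p = 0.00139) fell in the ShPkm2-labelled libraries. In ShPkm1, Jun (−0.34) and Mcl1 (−0.31) were called lower on counts and turned to 0.05 and 0.08 on log2(TPM + 1), while the fall of Fos (−0.86) was not called on that scale (adjusted p = 0.05).

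Of 20 other receptor tyrosine kinases, 16 were tested, with 7 higher and 5 lower in ShPkm1 and 7 higher and 4 lower in the ShPkm2-labelled libraries (9 to 3 and 10 to 3 on log2(TPM + 1)), where 63.1% and 68.0% of all tested genes were called. Erbb3, a neuregulin receptor, fell from 62.2 and 49.2 CPM in shScr to 14.0 and 12 CPM in ShPkm1 (−2.10, adjusted p = 4.44e-08) and 1.13 and 1.05 CPM in the ShPkm2-labelled libraries (−5.67, adjusted p = 3.53e-11). The platelet-derived growth factor receptor gene Pdgfra rose in both (2.30, adjusted p = 3.75e-08, and 2.46, adjusted p = 7.35e-09). Met, the receptor of hepatocyte growth factor, rose in the ShPkm2-labelled libraries (1.89, adjusted p = 2.83e-08).

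Among 14 genes of amino acid and endoplasmic reticulum stress and other known regulators of Fgf21, 11 were tested. In ShPkm1, 6 were higher and 1 lower, with a median of 0.45, where 31.8% of all tested genes were higher and 31.4% lower. In the ShPkm2-labelled libraries 9 were lower, with a median of −0.87, and the other two, Pparg and Ppargc1a, were not called (1 higher and 9 lower on library totals, 1 and 8 on log2(TPM + 1)), where 33.9% of all tested genes were higher and 34.2% lower. Against ShPkm1, 10 were lower in them, as were 27.3% of all tested genes. Atf4, the factor that binds the C/EBP-ATF element, was at 378 and 357 CPM in shScr, 500 and 503 CPM in ShPkm1, and 240 and 250 CPM in the ShPkm2-labelled libraries (0.45, SE 0.10, adjusted p = 0.00163, and −0.59, SE 0.10, adjusted p = 0.000164), and its fall was not called on log2(TPM + 1) (−0.10, adjusted p = 0.375). Its known targets Trib3 (2.17, adjusted p = 5.92e-09, and −1.50, adjusted p = 4.16e-07) and Chac1 (1.42, adjusted p = 8.89e-08, and −1.95, adjusted p = 6.49e-09) likewise rose in ShPkm1 and fell in the ShPkm2-labelled libraries. The related factor gene Atf5 did the same (1.16, adjusted p = 1.82e-06, and −0.77, adjusted p = 5.33e-05). Atf3 fell in both (−1.10 and −1.58), and Gdf15, another stress hormone, fell in the ShPkm2-labelled libraries (−1.51, adjusted p = 5.72e-06). Fgf21 itself was not called different in ShPkm1 on counts, where Trib3, Chac1, Atf4 and Atf5 were higher.

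**Figure D5:**
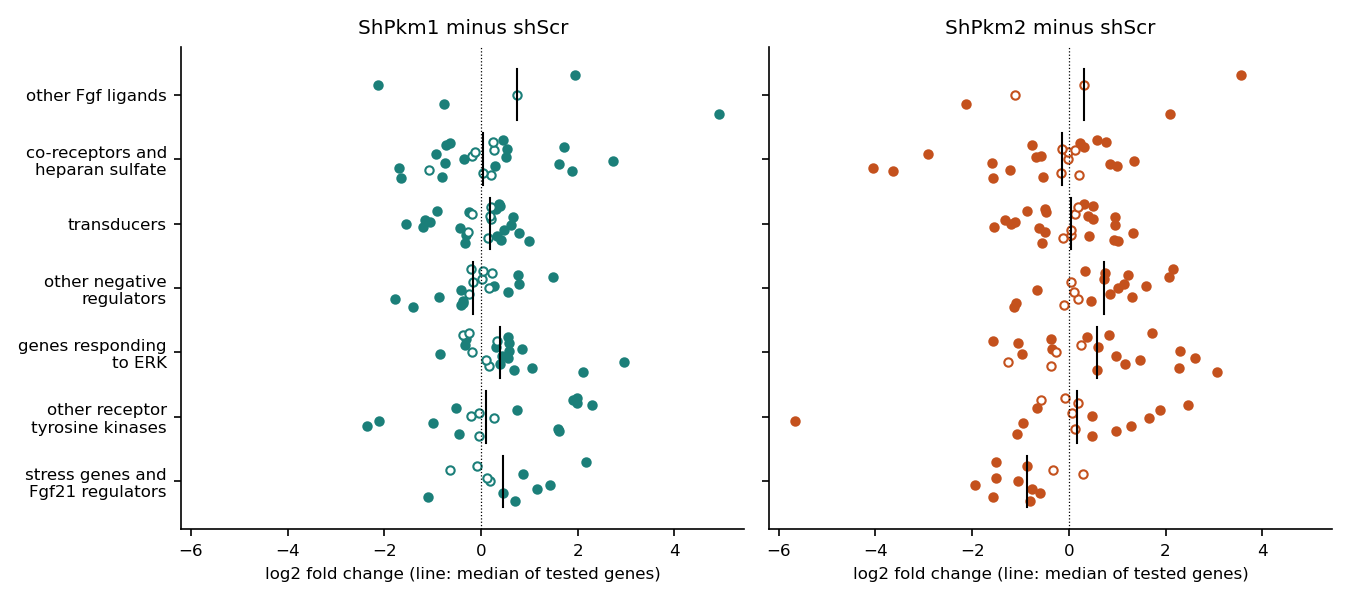
Log2 fold change of every tested gene of 7 lists around the Fgf route, in ShPkm1 (left) and in the ShPkm2-labelled libraries (right) against shScr. Filled points have an adjusted p under 0.05 and vertical lines are list medians. The median of the other negative regulators is −0.17 on the left and 0.72 on the right, and that of the stress genes and Fgf21 regulators is 0.45 and −0.87.

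The profiles most like those of the 10 genes were sought among 10716 tested genes by the Euclidean distance of centred log2 CPM over the 6 libraries. Nearest to Fgf21 were Traf3ip3 (distance 0.40), Inpp4b (0.48) and Arpp21 (0.55), and nearest to Spry1 were Cgref1 (0.30), Dll1 (0.53) and Gpt2 (0.60). Nearest to Fgfr4 were Gpx3 (0.30), Smoc1 (0.48) and Elmo1 (0.57). The profile of Dusp6 was closest to those of Nemp1 (0.14), Cadm1 (0.15) and Tmpo (0.22), that of Spry2 to Nup98 (0.08), Nup50 and Rap2b, and that of Spry4 to Numa1 (0.10), Tyro3 and Tnrc18. Otud7b (0.10), Pomt2 and Polr3a were nearest to Fgfr1, and Bcar1 (0.09), Atp6v0a2 and Hectd3 to Fgfrl1. Fgfr2 and Fgfr3 had means under 50 counts and were not matched. The distances are descriptions over 6 libraries that fall into 3 groups.

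Markers of other cell types moved with some groups. The summed level of 5 fibroblast markers was 373 and 385 TPM in shScr, 2641 and 2600 TPM in ShPkm1, and 70.5 and 63.9 TPM in the ShPkm2-labelled libraries, carried mostly by Col1a1. The fibroblast marker Pdgfra went the other way in the ShPkm2-labelled libraries, from 1.02 and 1.61 TPM in shScr to 10.22 and 9.47 TPM (8.44 and 8.34 TPM in ShPkm1). Tcf21, also on this list, was at 0 in every library. The 5 epithelial markers summed to between 1.71 and 3.69 TPM in shScr, 29.0 and 35.3 TPM in ShPkm1 and 6.91 and 6.85 TPM in the ShPkm2-labelled libraries, nearly all Krt14, with Epcam at 0. Fgfr2 and Fgfr4, too, were highest in ShPkm1, and the part of these markers in their levels was not tested. Endothelial, adipocyte and neural or glial markers summed to at most 0.8 TPM in any library, with Tie1, Emcn, Sox10 and Snap25 at 0, and the 2 leukocyte markers in the table, of 6 listed, summed to 0.82 to 4.11 TPM.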

How the data were processed

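RNA of 6 C2C12 libraries, 2 per group, was analysed from 1 deposited table. Groups and replicate numbers came from the sample titles. Per the file headers, its 57920 rows are RefSeq transcripts, each with estimated counts, FPKM and TPM per library. The submitters' processing notes name HISAT, StringTie, Bowtie, RSEM and DESeq2 and the build mm10, without roles or versions. The deposited estimated counts are not scaled, the authors' deposited TPM values allow for transcript length and library size, and the deposited FPKM values and 9 columns of the authors' means were not used. Strandedness and read length are not given in the sources used here.

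Counts and TPM were summed per NCBI gene number (17558 genes, 113 without a symbol in the RefSeq table of GRCm38.p6) and the counts were rounded. Genes were tested with edgeR 4.0.16 in R 4.3.3 (filterByExpr with a minimum count of 10 and total of 15, TMM, 1 coefficient per group over all 6 libraries, two-sided quasi-likelihood F-test, Benjamini-Hochberg over 12643 genes, threshold 0.05). The SE of a log2 fold change is its size over the square root of F. Transcripts were fitted in the same way (33433 tested). The statistics were checked on simulated counts. With 2 libraries against 2, permutation p-values start at 0.333, so none was used. A count of 3 per library was the floor, and floors cover counting error only.

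The 10 genes, the 7 lists around the Fgf route and the 7 marker lists were chosen with earlier results of these data known. Named from each list were up to 3 largest rises and falls per comparison among called genes whose mean reached 50 counts and whose groups did not overlap. Named outside this rule, after their values were seen, were Fgf2, Fgf5, Kl, Klb, Atf4, Pparg and Ppargc1a, and Atf5, Trib3, Spred1 and Il17rd in the libraries labelled ShPkm2. Promoters came from RefSeq (GRCm38.p6) and exons from GENCODE M21 (GRCm38). Alternatives were DESeq2 size factors, library totals, other filters, DESeq2 1.42.0, only the groups compared, a replicate block, each library left out, and limma 3.58.1 on log2(TPM + 1) and log2(TPM + 0.1). Their use on lists, list genes and transcripts was chosen after seeing the data.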

Additional observations from a re-analysis of the deposited data

How the results depend on the processing

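The log2 fold changes of the 10 genes kept their direction and side of the threshold in 392 of the values computed under alternatives, lost the call in 36, gained one in 8 and changed sign in 8. For the list genes named in the text, picked mainly for their large called changes, the numbers were 1783 kept, 48 lost, 2 gained and 4 changed in sign, and other list genes were not followed one by one. Members called in ShPkm1 numbered 7, and 4 on library totals, 4 in limma on log2(TPM + 0.1) and 4 to 7 with 1 library left out. Signs changed in limma on log2(TPM + 1) and log2(TPM + 0.1) for ShPkm1 minus shScr in Fgfr1 (0.124 and 0.126), Spry2 (0.039 and 0.040), Jun (0.050 and 0.051) and Mcl1 (0.079 and 0.080), and in the Pkm2 transcript NM_011099.3 (0.058 and 0.058). With 1 library left out, ShPkm1 minus shScr ran from −0.183 to 0.403 in Fgf21, from −0.171 to 0.228 in Spry1 and from −0.111 to 0.725 in the Fgfrl1 transcript NM_001164259.1, and ShPkm2 minus shScr in Fgfr1 ran from −0.086 to 0.166. The cause was not tested. Member transcripts called numbered 2, 10 and 6 in the 3 comparisons. In ShPkm1 minus shScr they numbered 0 with a replicate block, 4 with a mean of at least 50 counts, 4 in DESeq2, 4 and 4 in limma on log2(TPM + 1) and log2(TPM + 0.1), and 0 to 2 with 1 library left out. In ShPkm2 minus shScr they numbered 5 with the replicate block and 4 to 7 with 1 library left out, and in ShPkm2 minus ShPkm1 3 with the block and 1 to 5. Same-numbered libraries did not deviate together (r of deviations −0.026, 0.042 and 0.053), so the numbers were not taken as pairs. With the replicate block 7, 9 and 9 members and 7922, 8566 and 6682 of all genes were called. With a mean of at least 50 counts Fgfr2 and Fgfr3 have no value. Where 1 library of a group was left out, the lone library was assumed to vary like the others. Depth limits Fgfr2, Fgfr3 and Fgfr4, which had 4 to 23 counts in some libraries.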
